A study of Mus musculus with 10 samples.

Results

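Potassium channel genes were read in the brain hemisphere of mice after stroke or sham surgery. They were taken as all genes whose platform symbol is Kcn followed by letters and a number, with Kcnj10 left out, and each was read from the brightest of its single-symbol probe sets, by the mean of all arrays. This gave 79 of the 18193 genes measured. The 79 genes had 157 probe sets in all, and 45 of them had more than 1. Total RNA came from the operated side of male mice killed 24 h after middle cerebral artery occlusion (MCAO), which blocks the main artery of the hemisphere, or after sham surgery. Wild-type (WT) mice gave 2 sham and 3 MCAO arrays, and Hsp72Tg mice, which overexpress the heat shock protein Hsp72, also gave 2 sham and 3 MCAO arrays. The sources used here do not give strain, age or the promoter and species of the transgene. Arrays are named by group and replicate number, and p-values measure the spread between these arrays.

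Potassium channels let potassium leave or enter cells and so set the resting potential, end action potentials and space out firing. Voltage-gated members open on depolarization, calcium- and sodium-activated members open when those ions rise inside the cell, inward rectifiers hold the membrane near rest, and two-pore-domain channels carry background leak. Accessory subunits change how fast a channel opens, closes or inactivates and how much of it reaches the surface. In the brain most members are best known from neurons, while a few are known from glia, from vessel walls or from the choroid plexus, which makes cerebrospinal fluid.

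The values are log2 expression values, so a difference of 1 is a 2-fold change. Signals in the lower quartile of an array (5.14 to 5.21) were counted as dim. In 71 of the 79 genes all 10 arrays lay above that quartile, and 4 genes (Kcne3, Kcnj2, Kcnk15 and Kcnv2) lay below it in every array. Hspa1b, which encodes Hsp72, read 9.12 and 9.16 in Hsp72Tg sham against 9.38 and 9.48 in WT sham, and Hspa1a differed by -0.09 (SE 0.64) between these groups. Neither of the probe sets used was thus higher with the transgene before MCAO. Hspa1b had 3 probe sets, of which only the brightest was used. One array stood apart: on the first principal component of all genes, Hsp72Tg MCAO 1 lay at -12.9, between the sham arrays (-23.7 to -20.7) and the other MCAO arrays (11.7 to 32.3). Its Hspa1b value was 12.06, far above the sham arrays and within the 11.85 to 13.96 of the other MCAO arrays. A second array, WT sham 1, carried a signal of cerebellar markers, a mean of 8.91 over 11 genes against 7.09 to 7.36 in the other arrays. Values without these arrays are given where they change a call or move a value by over 1.5 times.

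Most potassium channel genes had lower values after MCAO, and a few had higher ones. Over both genotypes 59 of the 79 genes had a negative change and 20 a positive one. Their median change was -0.14 on the log2 scale, against -0.03 over all 18193 genes, so most of all genes were negative too. The lower and upper quartiles were -0.28 and 0.0017 in the 79 genes and -0.13 and 0.07 over all genes. Counts of negative changes by role and genotype below have only this background, since the share of all genes with a negative change was not computed. In limma, 0 of the 79 passed with all 10 arrays at an adjusted p (Benjamini-Hochberg) under 0.05, where 1.06% of all genes passed as higher and 0.407% as lower. At an unadjusted p under 0.05, 20 of the 79 genes (25.3%) were lower and 3 (3.8%) higher, against 10.8% and 8.3% of all genes. In 6 genes every MCAO array lay below every sham array (7.59%, against 3.41% of all genes), namely Kcnip2, Kcnk2, Kcnab1, Kcnd2, Kcna5 and Kcnh5. In 3 genes every MCAO array lay above (3.8%, against 3.19%), namely Kcnj8, Kcnk6 and Kcnk5. Their mean changes and those of the other genes are shown in the plot of change by subfamily.

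**Figure D1:**
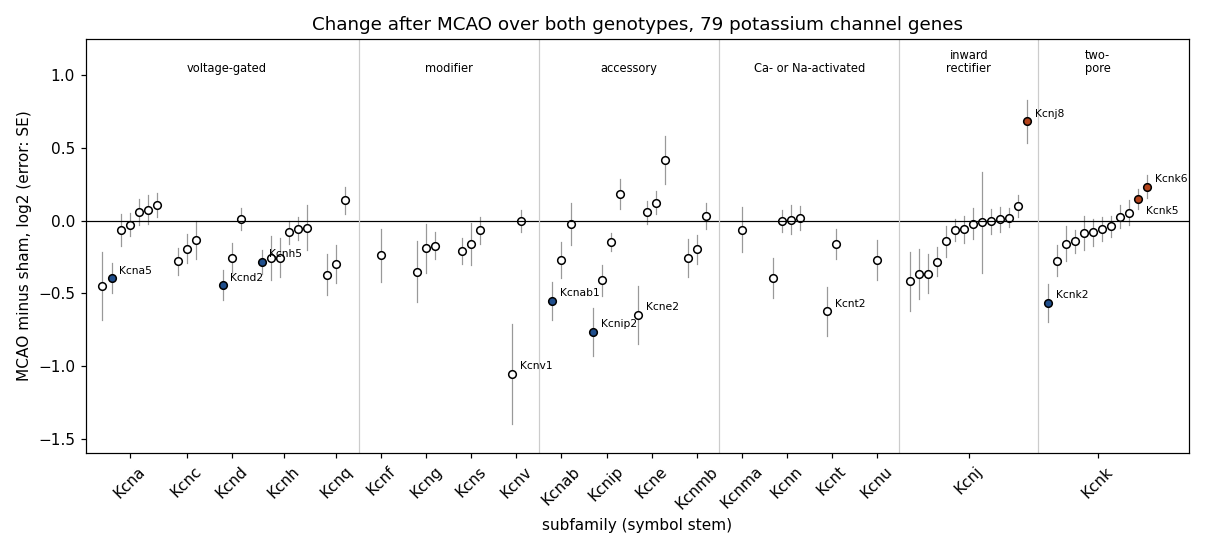
Change after MCAO over both genotypes (y axis, log2, bars are ± 1 SE) for each of the 79 genes, by subfamily and role on the x axis. Filled blue points mark the 6 genes with every MCAO array below every sham array and filled red points the 3 genes with every MCAO array above, from Kcnip2 at -0.77 to Kcnj8 at 0.68, and open points mark genes whose arrays overlapped.

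Of the arrays left out singly, Hsp72Tg MCAO 1 moved the count of passing genes the most. Of the 79 genes, 48 lay within the range of the 4 sham arrays in Hsp72Tg MCAO 1, against 19 to 35 in the other MCAO arrays. Only 14 (17.7%, against 22.5% of all genes) lay below the sham range in Hsp72Tg MCAO 1, against 34 to 41 in each of the other 5 (25.8% to 37.3% of all genes). Above the sham range in Hsp72Tg MCAO 1 lay 17 (21.5%, against 16.8% of all genes). Its share of channel genes within the range was thus near its share of all genes. Without that array, 18 of the 79 genes passed in limma over both genotypes, 16 of them lower and 2 higher. That is 20.3% lower and 2.53% higher, against 6.35% and 6.02% of all genes. The array was noticed in these same data because it lay near the sham arrays. Leaving it out therefore narrows the spread by the way it was chosen. The counts, SE and adjusted p-values without it, here and for single genes below, are thus a description. So are the words fell and rose where they rest on such a fit. With WT sham 1 left out as well, 9 genes passed as lower and 2 as higher, against 2.78% and 3.69% of all genes. The 7 genes that no longer passed then were Kcna5, Kcnab3, Kcne2, Kcnh3, Kcnj16, Kcnn2 and Kcnq5, with adjusted p in limma from 0.0523 to 0.0959 and changes of the same sign.

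Potassium channel promoters were matched in the RefSeq promoter table for 60 of the 79 genes, in 85 windows of 250 bases before a transcription start. The windows of 3 genes with a single start are printed because they stand for both directions. Kcnd2 and Kcnip2 encode a pore and its partner and had lower values after MCAO, and Kcnj8 had higher values. They are given 5′ to 3′ in build GRCm38.p6, and capitals mark a GC box (GGGCGG on either strand).
Kcnip2, chr19:45816064-45816313, minus strand: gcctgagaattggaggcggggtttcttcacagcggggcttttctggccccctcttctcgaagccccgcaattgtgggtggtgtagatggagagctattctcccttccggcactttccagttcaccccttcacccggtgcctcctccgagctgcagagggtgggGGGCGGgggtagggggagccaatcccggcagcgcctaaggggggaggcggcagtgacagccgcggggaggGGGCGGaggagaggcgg
Kcnd2, chr6:21215096-21215345, plus strand: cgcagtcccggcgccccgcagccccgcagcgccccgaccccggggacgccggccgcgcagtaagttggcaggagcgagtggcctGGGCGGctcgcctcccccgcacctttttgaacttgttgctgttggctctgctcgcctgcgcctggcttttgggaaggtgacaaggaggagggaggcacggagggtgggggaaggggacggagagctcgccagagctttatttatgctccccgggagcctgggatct
Kcnj8, chr6:142571615-142571864, minus strand: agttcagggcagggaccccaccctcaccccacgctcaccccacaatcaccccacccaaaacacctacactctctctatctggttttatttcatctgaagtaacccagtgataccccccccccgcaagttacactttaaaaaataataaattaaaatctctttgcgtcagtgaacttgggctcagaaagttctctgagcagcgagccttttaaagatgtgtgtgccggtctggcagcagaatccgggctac
The Kcnip2 window held 2 GC boxes in 66.8% G and C, and the Kcnd2 window held 1 in 68.8%. The Kcnj8 window held 0 in 49.2% G and C. A GC box was found in 37 of the 85 windows (43.5%), against 32.7% of the 32841 windows of this length in the table. A TATAAA motif was found in 3 of the 85 (3.53%, against 12.4%), TGANTCA in 4 (4.71%, against 6.75%) and TGACGTCA in 0 (against 1.55%), each on either strand, and none of these 3 in the windows printed. A match is a description of letters and not a binding site.

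Among the 22 voltage-gated pore subunits, 17 had a negative change over both genotypes, with a median of -0.16. In limma 0 passed with all arrays, and 5 fell without Hsp72Tg MCAO 1 (Kcna4, Kcna5, Kcnd2, Kcnh3 and Kcnq5), in a fit where 6.35% of all genes fell. Of these 5, Kcna4 and Kcnd2 also passed without WT sham 1 as well. Kcnd2 encodes a Kv4 pore that carries the fast-inactivating A-type current of dendrites. Its values were 11.26 and 11.33 in WT sham, 11.17 and 11.24 in Hsp72Tg sham, 10.87, 10.999 and 10.77 in WT MCAO and 11.04, 10.59 and 10.56 in Hsp72Tg MCAO. Every MCAO array thus lay below every sham array, with Hsp72Tg MCAO 1 the nearest to them. The change of Kcnd2 was -0.44 (SE 0.10, interval -0.68 to -0.21, adjusted p = 0.0691 in limma), and -0.52 (SE 0.07, adjusted p = 0.00195) without Hsp72Tg MCAO 1. The other 2 probe sets of Kcnd2 above the lower quartile read -0.35 and -0.26, and the dim one read 0.06. The other Kv4 pores differed less, Kcnd1 at -0.25 (SE 0.10) and Kcnd3 at 0.01 (SE 0.08).

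The Kv1 pores, which shape firing threshold and repolarization, had changes of both signs. Kcna4, an A-type Kv1 pore, read 7.88 and 8.07 in WT sham, 8.16, 8.0 and 7.63 in WT MCAO, 8.35 and 8.26 in Hsp72Tg sham and 8.28, 6.98 and 7.10 in Hsp72Tg MCAO. Only the last 2 arrays lay far below the rest. Its change was -0.45 over both genotypes (SE 0.23, adjusted p = 0.327 in limma), -0.05 in WT (SE 0.33) and -0.85 in Hsp72Tg (SE 0.33), and the difference between those 2 changes, -0.80 (SE 0.47), did not pass in limma (adjusted p = 1.0). Kcna5 read 7.59 to 7.74 in the 4 sham arrays, 7.08 to 7.45 in WT MCAO and 6.98 to 7.34 in Hsp72Tg MCAO, with a change of -0.40 (SE 0.10, adjusted p = 0.0825 in limma). Kcna1 and Kcna2, the main axonal Kv1 pores, changed by 0.06 (SE 0.09) and -0.07 (SE 0.11). Kcna3, known from lymphocytes and microglia, changed by 0.08 (SE 0.10). All 3 of these intervals included 0, with bounds of -0.31 and 0.30 at the widest. The other Kcna1 probe sets read 0.36 (SE 0.16), 0.29 (SE 0.10) and, in the dimmest, 0.0022 (SE 0.08). None of them passed in limma, and the size of the Kcna1 change depends on the probe set. The 4 Kcna2 probe sets ran from -0.13 to 0.10.

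Kv3 pores allow fast firing, and all 3 had a negative change. Kcnc1 stood at -0.28 (SE 0.09, adjusted p = 0.148 in limma), with sham arrays from 10.37 to 10.71 and MCAO arrays from 10.18 to 10.64 that overlapped. Its 4 probe sets ran from -0.28 to 0.22, so its direction depends on the probe set. Of the pores of the M-type current, which holds back repeated firing, Kcnq3 stood at -0.30 (SE 0.13; -0.19 without Hsp72Tg sham 2) and Kcnq5 at -0.37 (SE 0.14), while Kcnq1, best known from heart and epithelia, stood at 0.14 (SE 0.09). Kcnq5 fell without Hsp72Tg MCAO 1 (-0.46, SE 0.12, adjusted p = 0.0350 in limma) but did not pass without WT sham 1 as well (adjusted p = 0.0823), and its 3 probe sets ran from -0.41 to 0.11.

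All 6 ether-a-go-go type pores (Kcnh) had a negative change, with a median of -0.17. Kcnh5 read 6.16 and 6.12 in WT sham, 6.36 and 6.68 in Hsp72Tg sham, 6.09, 6.11 and 6.04 in WT MCAO and 6.08, 5.89 and 6.08 in Hsp72Tg MCAO. The 2 Hsp72Tg sham arrays were the highest and the other arrays lay close together, so its change of -0.28 (SE 0.08, adjusted p = 0.104 in limma) was -0.06 in WT and -0.50 in Hsp72Tg. Kcnh3 stood at -0.25 (SE 0.13) and fell without Hsp72Tg MCAO 1 (-0.35, SE 0.10, adjusted p = 0.0450 in limma), but did not pass without WT sham 1 as well (adjusted p = 0.0946). Its other 3 probe sets read -0.23, -0.03 and 0.0095. Kcnh2, which encodes the ERG channel, changed by -0.08 (SE 0.08).

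Modifier subunits form no channel alone and alter the Kv2 pores they join. All 9 had a negative change over both genotypes, with a median of -0.19, though that of Kcnv2, dim in every array, was only -0.0048 (SE 0.08). Kcnv1 had the most negative change of all 79 genes. It read 8.92 and 9.38 in WT sham, 8.36, 8.14 and 8.08 in WT MCAO, 9.41 and 9.09 in Hsp72Tg sham and 9.39, 7.42 and 7.48 in Hsp72Tg MCAO. Hsp72Tg MCAO 1 lay among the sham arrays, and the other 5 MCAO arrays lay below all sham arrays. The change of Kcnv1 was -1.05 (SE 0.35, interval -1.83 to -0.28, adjusted p = 0.142 in limma), and -1.38 (SE 0.12, adjusted p = 9.9e-05), a 2.60-fold fall, without Hsp72Tg MCAO 1. The smaller SE and adjusted p of Kcnv1 follow from leaving out an array chosen for lying near sham, and are a description. Its other probe sets read -0.81 and -0.83. Kcng4 stood at -0.35 (SE 0.21), with 7.11 in WT sham 1 and 5.73 to 6.69 in the other 9 arrays, and the change was -0.15 without WT sham 1, -0.55 without WT sham 2 and -0.23 without Hsp72Tg MCAO 2. Kcns2 stood at -0.21 (SE 0.09) and at -0.12 without Hsp72Tg sham 1.

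**Figure D2:**
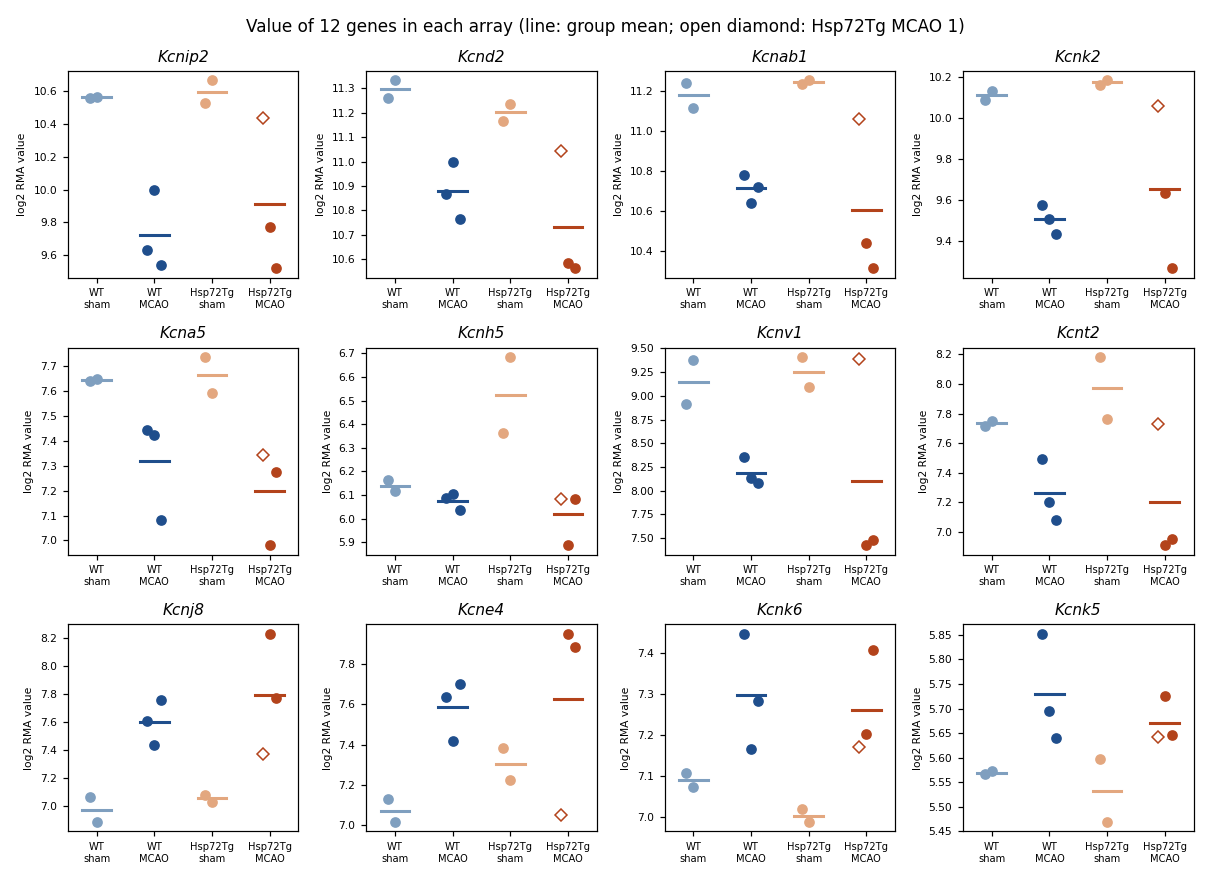
Log2 RMA value (y axis) of 12 genes in each array by group (x axis), with lines at group means and an open diamond for Hsp72Tg MCAO 1. In Kcnv1 and Kcnt2 the diamond lies at 9.39 and 7.73, among or beside the sham arrays, while in Kcnj8 it lies at 7.37, above all sham arrays.

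Of the 14 accessory subunits, 9 had a negative change and 5 a positive one, with a median of -0.17. In limma 0 passed with all arrays, and without Hsp72Tg MCAO 1 a total of 5 fell (Kcnip2, Kcnip4, Kcnab1, Kcnab3 and Kcne2) and 1 rose (Kcne4), where 6.35% of all genes fell and 6.02% rose. Kcnab3 (adjusted p = 0.0629) and Kcne2 (0.0959) did not pass in limma without WT sham 1 as well. Kcnip2 encodes a calcium-binding partner that brings Kv4 pores to the membrane. It read 10.56 and 10.57 in WT sham, 10.53 and 10.67 in Hsp72Tg sham, 9.63, 10.0 and 9.54 in WT MCAO and 10.44, 9.77 and 9.52 in Hsp72Tg MCAO. The sham arrays lay close together and above every MCAO array. Its change was -0.77 (SE 0.17, interval -1.14 to -0.39, adjusted p = 0.0581 in limma), with -0.84 in WT and -0.69 in Hsp72Tg. Without Hsp72Tg MCAO 1 Kcnip2 fell, with a change of -0.90 (SE 0.11) and an adjusted p of 0.000818 in limma. Its next probe set read -1.03 and the last, which had a low signal, -0.11.

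The other Kv4 partners went different ways. Kcnip4 stood at -0.41 (SE 0.11, adjusted p = 0.0888 in limma), and its 3 probe sets ran from -0.42 to -0.30. Kcnip1 stood at -0.15 (SE 0.06), and its 4 probe sets ran from -0.15 to 0.17. Kcnip3, also known as the transcriptional repressor DREAM, stood at 0.18 (SE 0.10), and its other probe set at -0.03. Kcnab1, the beta subunit that makes Kv1 pores inactivate, read 11.12 to 11.26 in the 4 sham arrays, 10.64 to 10.78 in WT MCAO and 11.06, 10.44 and 10.31 in Hsp72Tg MCAO. Every MCAO array lay below the sham arrays, and the change was -0.55 (SE 0.13, adjusted p = 0.0735 in limma), or -0.67 (SE 0.07, adjusted p = 0.000432) without Hsp72Tg MCAO 1. Its second probe set read -0.63. Kcnab2 changed by -0.02 (SE 0.14).

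The Kcne subunits were split. Kcne2, known from the choroid plexus, read 6.23 to 6.85 in the sham arrays and 5.31 to 6.23 in the MCAO arrays, which met at that value, with a change of -0.65 (SE 0.20, adjusted p = 0.123 in limma). Markers of the choroid plexus gave a mean over 7 genes of 8.41 to 8.45 in the sham arrays and 8.20 to 8.63 in the MCAO arrays, and their part in the Kcne2 values was not tested. Kcne4 read 7.13 and 7.02 in WT sham, 7.64, 7.42 and 7.70 in WT MCAO, 7.38 and 7.23 in Hsp72Tg sham and 7.05, 7.95 and 7.88 in Hsp72Tg MCAO. All MCAO arrays but Hsp72Tg MCAO 1 lay above the sham arrays. Its change was 0.42 (SE 0.17, interval 0.05 to 0.79), and 0.56 (SE 0.08, adjusted p = 0.00268 in limma) without that array. Kcne1 stood at 0.12 (SE 0.08). Kcnmb4, the neuronal subunit of the BK channel, stood at -0.26 (SE 0.13) and at -0.15 without Hsp72Tg MCAO 3.

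Of the 8 pores of the calcium- or sodium-activated group, which here includes the related sperm channel gene Kcnu1, 6 had a negative change and 0 passed with all arrays, while 2 fell without Hsp72Tg MCAO 1 (Kcnn2 and Kcnt2), where 6.35% of all genes fell. Kcnt2, a sodium-activated pore, read 7.72 and 7.75 in WT sham, 7.495, 7.21 and 7.08 in WT MCAO, 8.18 and 7.77 in Hsp72Tg sham and 7.73, 6.91 and 6.96 in Hsp72Tg MCAO. Within each genotype the MCAO arrays lay below the sham arrays. The change of Kcnt2 was -0.62 (SE 0.17, adjusted p = 0.0957 in limma), against -0.16 (SE 0.10) for Kcnt1. Kcnn2, the SK pore behind the afterhyperpolarization of many neurons, stood at -0.40 (SE 0.14) and did not pass in limma without both arrays (adjusted p = 0.0523). Kcnn1 and Kcnn3 stood at 0.01 (SE 0.10) and -0.0028 (SE 0.08). Kcnn4, known from microglia and blood cells, stood at 0.02 (SE 0.08, interval -0.16 to 0.20). Kcnma1, the BK pore, stood at -0.06 (SE 0.15) and at 0.15 without Hsp72Tg sham 2, and its 5 probe sets ran from -0.33 to 0.29.

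Of the 14 inward rectifiers, 10 had a negative change and 4 a positive one, with a median of -0.04, near that of all genes. Kcnj8 encodes the pore of the ATP-sensitive channel of vessel walls and pericytes and had the most positive change of the 79 genes. It read 7.06 and 6.88 in WT sham, 7.08 and 7.03 in Hsp72Tg sham, 7.61, 7.43 and 7.75 in WT MCAO and 7.37, 8.23 and 7.77 in Hsp72Tg MCAO. Every MCAO array, Hsp72Tg MCAO 1 included, lay above every sham array. Its change was 0.68 (SE 0.15, interval 0.35 to 1.01, adjusted p = 0.0580 in limma), and 0.79 (SE 0.11, adjusted p = 0.00191) without that array. Abcc9, the sulfonylurea receptor that joins this pore in vessels, stood at 0.52 (SE 0.15, adjusted p = 0.107 in limma). Kcnj11, the pore of the neuronal and pancreatic form, stood at -0.06 (SE 0.08). Endothelial and pericyte markers gave a mean over 10 genes of 8.23 to 8.60 in the sham arrays and 8.60 to 9.01 in the MCAO arrays. Of these 10 genes 2 passed as higher (Pecam1 and Cldn5), while the pericyte gene Rgs5 stood at -0.08 (SE 0.08) and Pdgfrb at 0.56 (SE 0.17). Their part in the Kcnj8 values was not tested.

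Other inward rectifiers had lower values. Kcnj3, which forms the G-protein-gated channel, stood at -0.36 (SE 0.14) and fell without Hsp72Tg MCAO 1 (-0.48, SE 0.09, adjusted p = 0.00709 in limma). Kcnj4, a resting-potential pore of forebrain neurons, stood at -0.42 (SE 0.20), with -0.60 in WT and -0.24 in Hsp72Tg, or -0.48 in Hsp72Tg without Hsp72Tg MCAO 1. Kcnj16, which pairs with the astrocyte pore encoded by Kcnj10, stood at -0.28 (SE 0.10) and at -0.35 (SE 0.08, adjusted p = 0.0205 in limma) without that array, and did not pass without WT sham 1 as well (adjusted p = 0.0546). Kcnj13, known from the choroid plexus, stood at -0.37 (SE 0.17) and at -0.23 without Hsp72Tg MCAO 2. Kcnj2 was dim in all arrays and stood at 0.01 (SE 0.09), with a sign that changed between fits.

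Among the 12 two-pore-domain leak channels, 8 had a negative change and 4 a positive one, with a median of -0.07. Kcnk2 encodes the leak channel TREK-1, which opens on stretch and with fatty acids. It read 10.09 and 10.13 in WT sham, 10.16 and 10.19 in Hsp72Tg sham, 9.57, 9.51 and 9.43 in WT MCAO and 10.06, 9.63 and 9.26 in Hsp72Tg MCAO. All MCAO arrays lay below the sham arrays, Hsp72Tg MCAO 1 by the least. The change of Kcnk2 was -0.56 (SE 0.13, interval -0.86 to -0.27, adjusted p = 0.0680 in limma), and -0.67 (SE 0.09, adjusted p = 0.00138) without that array. Kcnk6 read 6.99 to 7.11 in the sham arrays and 7.17 to 7.45 in the MCAO arrays, a change of 0.23 (SE 0.08, adjusted p = 0.152 in limma). Kcnk5, an acid-sensitive leak channel, read 5.47 to 5.60 and 5.64 to 5.85, near the dim range. Its change was 0.15 (SE 0.07, interval -0.0024 to 0.30, adjusted p = 0.266 in limma). The other Kcnk5 probe set, above the lower quartile in only 1 array, read 0.08 (SE 0.09). In neither Kcnk6 nor Kcnk5 did sham and MCAO arrays overlap, though the changes were small. Kcnk13, known from microglia, stood at -0.04 (SE 0.07), and Kcnk1 at -0.16 (SE 0.12).

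Within WT, 57 of the 79 genes had a negative change, with a median of -0.13 against -0.02 over all genes. In limma 0 passed, against 0.0495% of all genes as higher and 0.0055% as lower, and 11 were lower and 1 higher at an unadjusted p under 0.05 (4.52% and 5.71% of all genes). In 31 genes (39.2%) the 3 MCAO arrays lay below both sham arrays, and in 8 (10.1%) above, against 22.5% and 16.4% of all genes. When only the 5 WT arrays were fitted, 6 genes fell (Kcnip2, Kcnv1, Kcnk2, Kcnip4, Kcnh3 and Kcnab1) and 2 rose (Kcnj8 and Kcne4), 7.59% and 2.53% against 1.54% and 3.71% of all genes. In the fit of all groups without Hsp72Tg MCAO 1, 5 fell in WT and 1 rose, 6.33% and 1.27% against 0.583% and 1.96% of all genes. With WT sham 1 left out as well, Kcnv1 was the only gene past the threshold in WT, where 0.11% of all genes were lower and 0.704% higher.

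Within Hsp72Tg, 55 of the 79 genes had a negative change, with a median of -0.09 against -0.02 over all genes. That median was -0.14 without Hsp72Tg MCAO 1 or without Hsp72Tg sham 1, and -0.05 without Hsp72Tg MCAO 3. In limma 0 passed, against 0.0165% of all genes as higher and 0.0055% as lower, and 14 were lower and 2 higher at an unadjusted p under 0.05 (7.29% and 4.73% of all genes). The MCAO arrays lay below both sham arrays in 15 genes (19%) and above in 3 (3.8%), against 12.8% and 9.05% of all genes. Without Hsp72Tg MCAO 1, 11 fell and 2 rose, 13.9% and 2.53% against 3.11% and 3.39% of all genes. They included Kcna4 (-1.27), Kcnt2 (-1.04) and Kcnj8 (0.95). With WT sham 1 left out as well, 9 fell and 2 rose, against 1.74% and 2.54% of all genes.

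The 2 genotypes share no arrays, so their changes can be set side by side. Of the 79 genes, 46 were lower after MCAO in both (58.2%, against 40.7% of all genes), 13 were higher in both (16.5%, against 28.4%) and 20 had opposite signs. Across the 79 genes the changes in the 2 genotypes had a Pearson r of 0.64 and a Spearman rho of 0.59, against 0.76 and 0.57 across all genes. Genes are not independent replicates, and the genes of 1 genotype share its arrays.

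**Figure D3:**
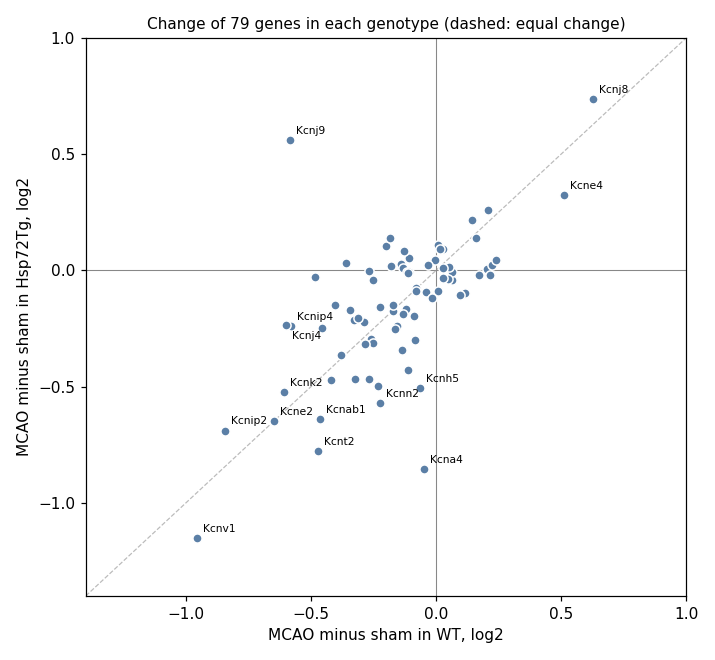
Change after MCAO in WT (x axis, log2) against the change in Hsp72Tg (y axis, log2) for the 79 genes, with the dashed line at equal change. Kcnv1 lies at -0.96 and -1.15 and Kcnj8 at 0.63 and 0.74, while Kcna4 (-0.05 and -0.85) and Kcnj9 (-0.58 and 0.56) lie far from the line.

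No difference between the genotypes passed. In limma the difference of the MCAO changes, Hsp72Tg minus WT, had 0 of 79 genes past the threshold and 1 at an unadjusted p under 0.05 (Kcnh5, -0.44, SE 0.16). Of all genes 0% passed, and 1.14% were lower and 0.616% higher at that unadjusted p. Without Hsp72Tg MCAO 1, 0 of 79 passed, against 0.011% of all genes as lower, and 7 were lower and 0 higher at that p. The median of the 79 was then -0.07, against -0.01 over all genes. The value of Kcnh5 was -0.28 without Hsp72Tg sham 2. By p, Kcnt1 (0.39, SE 0.21), Kcnh3 (0.46, SE 0.27) and Kcnip1 (0.21, SE 0.13) came first on the higher side, and Kcna4 and Kcnj15 (-0.24, SE 0.16) followed Kcnh5 on the lower. Without Hsp72Tg MCAO 1 the value of Kcnh3 was 0.26 and that of Kcna4 -1.22, and that of Kcnt1 was 0.19 without Hsp72Tg sham 1 and 0.60 without Hsp72Tg sham 2. After MCAO, 0 of 79 genes differed between Hsp72Tg and WT in limma, against 0% of all genes, and 1 was higher at an unadjusted p under 0.05 (0.89% of all genes) and 0 lower (1.79%). The arrays did not overlap in 3 genes on the higher side (3.8%, against 2.75%) and 2 on the lower (2.53%, against 4.69%). The gene past that p was Kcnj14, 0.39 higher in Hsp72Tg (SE 0.13, adjusted p = 1.0 in limma), with 5.01 to 5.11 in WT MCAO and 5.26 to 5.77 in Hsp72Tg MCAO, near the dim range, and 0.24 higher without Hsp72Tg MCAO 2. Kcna7 (0.23, SE 0.10) and Kcnmb2 (0.23, SE 0.12) followed on the higher side, and Kcnd3 (-0.20, SE 0.10, but 0.0163 as the mean over its probe sets), Kcnq1 (-0.23, SE 0.12) and Kcnn3 (-0.17, SE 0.10) on the lower. Single arrays moved all 5 of these: Kcnmb2 was 0.09 and Kcnq1 -0.15 without WT MCAO 1, Kcna7 was 0.15 and Kcnd3 -0.10 without Hsp72Tg MCAO 3, and Kcnn3 was -0.10 without Hsp72Tg MCAO 1. In that last fit 0 of 79 passed after MCAO, against 0% of all genes, and 4 were higher and 8 lower at an unadjusted p under 0.05. The median of the 79 was then -0.09, against -0.02 over all genes. The unadjusted counts without Hsp72Tg MCAO 1 are a description. Their shares over all genes were not computed, so they cannot be read as an excess.

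After sham surgery 0 of 79 genes differed between the genotypes in limma, against 0% of all genes, with 1 higher (Kcnh5) and 1 lower (Kcnj9) at an unadjusted p under 0.05 (0.698% and 0.857% of all genes). The sham arrays of the genotypes did not overlap in 10 genes on the higher side (12.7%, against 12.8% of all genes) and 9 on the lower (11.4%, against 14.2%), which is near the background. Kcnj9, a G-protein-gated inward rectifier, read 10.07 and 10.14 in WT sham, 8.61 and 9.16 in Hsp72Tg sham, 10.49, 8.39 and 9.69 in WT MCAO and 8.99, 9.58 and 9.77 in Hsp72Tg MCAO. The 3 WT MCAO arrays alone spanned the range of all the others. Its sham difference was -1.22 (SE 0.54, adjusted p = 1.0 in limma), while its 3 other probe sets read 0.17, -0.27 and -0.22. Kcnh5 was 0.38 higher (SE 0.12), and 0.22 higher without Hsp72Tg sham 2, and Kcnmb2 was 0.31 (SE 0.15) and Kcna3 0.23 (SE 0.16) higher. Without Hsp72Tg sham 2 the value of Kcna3 was 0.02, and without Hsp72Tg sham 1 it was 0.45. On the lower side Kcnip1 (-0.18, SE 0.10) and Kcnip4 (-0.27, SE 0.17) came after Kcnj9. Over both surgeries 0 genes passed in limma, against 0% of all genes, with 1 at an unadjusted p under 0.05 (Kcnmb2, 0.27, SE 0.10, with 0.775% of all genes higher and 1.37% lower). Without Hsp72Tg MCAO 1, 0 of 79 passed over both surgeries, against 0.011% of all genes as higher, and 3 were higher and 6 lower at that p. The median of the 79 was then -0.04, against -0.02 over all genes. These unadjusted counts are a description. Their shares over all genes were not computed, so they cannot be read as an excess.

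Markers of cell types were read in the same arrays, since the RNA came from whole hemisphere tissue, where fewer cells of a type and less RNA per cell cannot be told apart. Striatal projection neuron markers gave a mean over 8 genes of 10.42 to 10.51 in the sham arrays, 9.35 to 9.81 in 5 MCAO arrays and 10.59 in Hsp72Tg MCAO 1. General neuron markers gave a mean over 10 genes of 12.38 to 12.54, 12.13 to 12.36 and 12.50 in the same order. None of these 18 genes passed over both genotypes in limma with all arrays, and 1 of each list lay below the sham arrays in every MCAO array, as did 3.41% of all genes. The array that read like sham in the channel genes thus did so in both neuron lists. Astrocyte markers gave 11.29 to 11.35 over 10 genes in the sham arrays and 11.41 to 11.61 in the MCAO arrays, and 1 of them, Gfap, rose (1.60). The median change of these 10 was only 0.02. In every MCAO array 1 of them lay above the sham arrays and 2 below, against 3.19% and 3.41% of all genes. Microglia and macrophage markers gave 8.28 to 8.78 and 8.27 to 8.95 over 9 genes, of which Cd68 rose (1.35). T lymphocyte markers, 5 genes measured, gave 6.36 to 6.47 and 6.19 to 6.36. Interneuron markers gave 9.76 to 9.90 and 9.43 to 9.91 over 7 genes. The part of any cell type in the channel values was not tested.

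**Figure D4:**
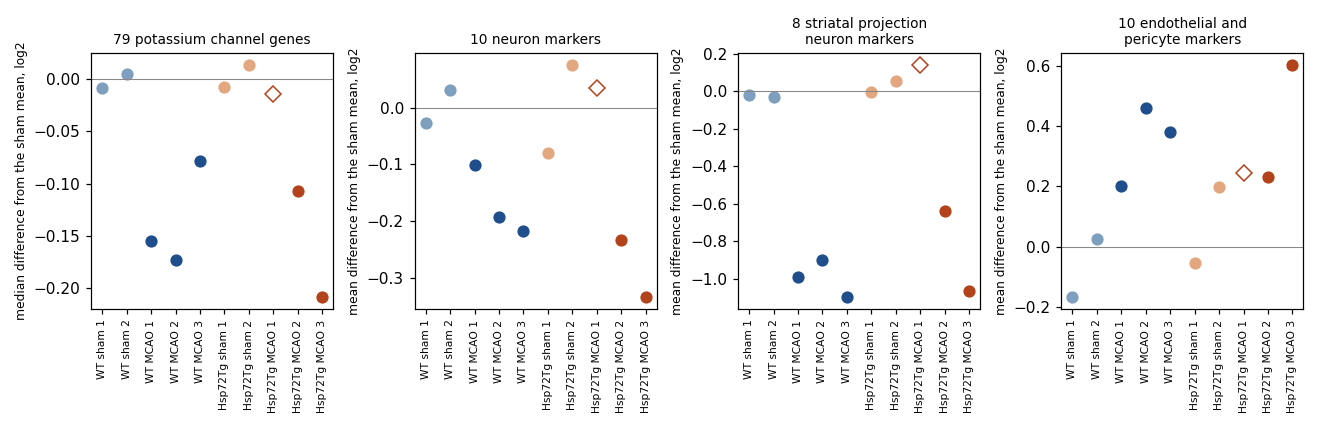
Difference of each array (x axis) from the mean of the 4 sham arrays (y axis, log2), as the median over the 79 channel genes and as the mean over 3 lists of cell type markers. Hsp72Tg MCAO 1 (open diamond) lies at -0.01 for the channel genes and at 0.14 for the striatal markers, where the other MCAO arrays lie between -0.21 and -0.08 and between -1.10 and -0.64.

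Of the genes of related function outside the symbol rule, 0 passed. Of 11 proteins that anchor Kv channels or join them, 0 passed in limma, the median change was -0.25, and 1, Cntnap2, lay below the sham arrays in every MCAO array (-0.35, SE 0.10). Dpp10, a partner of Kv4 pores beside Kcnip2, stood at -0.49 (SE 0.12, adjusted p = 0.0737 in limma). The list mean was 9.76 to 9.93 in the sham arrays, 9.48 to 9.64 in 5 MCAO arrays and 9.90 in Hsp72Tg MCAO 1. In limma 0 passed of the 5 measured sulfonylurea receptors and BK gamma subunits (median 0.01), of 2 HCN channels (0.01), of 3 sodium-potassium pump subunits (0.07) and of 5 cation-chloride cotransporters (0.02). Among the cotransporters Slc12a4 lay above the sham arrays in every MCAO array (0.30, SE 0.10), and Slc12a5, the neuronal chloride exporter, stood at -0.13 (SE 0.10). Of the 26 genes measured in these 5 lists, 5 were lower and 3 higher at an unadjusted p under 0.05, against 10.8% and 8.3% of all genes.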

How the data were processed

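Gene expression was measured on 1-colour Affymetrix arrays, 1 per sample. The deposited values are log2 expression values per probe set, computed with RMA (background correction, normalization between arrays and summary of probes), per the submitters' processing notes. The sources used here do not state its version or settings. Scanner files were not used, so no background flag was applied, and the number of arrays limits the precision.

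Of 45101 probe sets, 64 controls were left out, the platform annotation gave 1 symbol for 34945, several for 932 and none for 9160. Through Entrez identifiers 34741 matched RefSeq (GRCm38.p6) and 0 symbols changed. Tests used limma 3.58.1 in R 4.3.3 (lmFit, contrasts.fit, eBayes), with 4 group means over all 10 arrays, 6 residual and 3.72 prior degrees of freedom, and Benjamini-Hochberg adjustment over all 18193 genes, two-sided, at 0.05. Intervals are 95%. The script was tested on simulated data.

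The members and lists were chosen with earlier results of these data known. Named genes were 22 listed channels, those passing, those with the largest changes without overlap (8 per direction over both genotypes, 5 in each genotype), the largest change of each subfamily, and the 3 smallest p per direction for each genotype comparison. Genes named beyond these were chosen after their values were seen. Marker lists not given in the report were thalamic (mean 9.48 to 9.70 in sham, 9.30 to 9.77 in MCAO arrays), oligodendrocyte (11.35 to 11.54, 11.30 to 11.57, with Mog lower by limma), neutrophil (5.48 to 6.41, 5.71 to 7.75) and ependymal markers (6.78 to 6.98, 6.37 to 6.88). Alternatives were a replicate block, only the groups compared, trend and robust eBayes, array weights, quantile normalization, median centring, the mean over probe sets, a filter on dim probe sets, a threshold of 0.01 and leaving out arrays. The non-overlap counts without Hsp72Tg MCAO 1 were added after seeing the data.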

Additional observations from a re-analysis of the deposited data

How the results depend on the processing

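The count of channel genes past the threshold was 0 for all 7 comparisons with all arrays and stayed 0 for the 4 comparisons of genotypes under each alternative run. For MCAO over both genotypes it was 2 (Kcnj8 higher and Kcnip2 lower) with trend and robust eBayes, where 1.09% of all genes were higher and 0.434% lower. The same 2 passed with the filter on dim probe sets, which tests fewer genes (1.52% and 0.544% of all genes). It was 9 with array weights, 1 higher and 8 lower (1.27% and 10.1%, against 3.84% and 2.3% of all genes). For MCAO in WT it was 8 with only the WT arrays, 2 higher and 6 lower (2.53% and 7.59%, against 3.71% and 1.54% of all genes). With array weights it was 9 in WT, 1 higher and 8 lower (1.27% and 10.1%, against 4.71% and 2.75% of all genes). Leaving out single arrays gave 0 to 18 over both genotypes, 0 to 6 in WT and 0 to 13 in Hsp72Tg, with the highest counts without Hsp72Tg MCAO 1. Without Hsp72Tg MCAO 2 only Kcnj8 passed over both genotypes (0.57, adjusted p = 0.0441 in limma), where 0.967% of all genes were higher. Without both Hsp72Tg MCAO 1 and WT sham 1 the counts were 11, 1 and 11. Over all genes, 192 passed as higher and 74 as lower after MCAO over both genotypes with all arrays, 17 and 2 with the replicate block, 698 and 418 with array weights, and 1096 and 1155 without Hsp72Tg MCAO 1. Leaving out any 1 of the other arrays gave 8 to 176 higher and 2 to 46 lower, such as 8 and 3 without Hsp72Tg sham 1, 13 and 2 without WT MCAO 3 and 15 and 2 without WT sham 1. Where not stated, the cause was not tested. With the replicate number as a block the counts were 0, Kcnip2 stood at -0.62 and Kcnj8 at 0.65. Of 13 pairs of same-numbered arrays, 2 correlated above 0.1 in their deviations from the group mean (from -0.16 to 0.25). In groups of 2 arrays these deviations mirror each other, so the correlations cannot show whether same-numbered arrays share more than a number. The median change after MCAO kept its sign under each alternative run, between -0.15 and -0.09 over both genotypes, -0.14 and -0.10 in WT and -0.14 and -0.05 in Hsp72Tg. These signs turned: Kcnn4 (-0.0223 with the block, -0.0605 to 0.10 with 1 array left out), Kcnj2 (-0.0087 with array weights, -0.0029 with median centring, -0.0276 without both arrays, -0.0861 to 0.10 with 1 left out), Kcnd3 after MCAO between genotypes (0.0163 with the mean over probe sets), and with 1 array left out Kcna2 (-0.13 to 0.0005), Kcna3 (-0.0306 to 0.18), Kcnk13 (-0.10 to 0.0185) and Kcnma1 (-0.28 to 0.15). The direction differed between probe sets in 21 of the 45 genes with more than 1.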

Other observations

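Without Hsp72Tg MCAO 1, the MCAO arrays lay below all sham arrays in 18 of the 79 channel genes over both genotypes (22.8%, against 7.5% of all genes) and above in 4 (5.06%, against 6.98%). Within Hsp72Tg, the 2 remaining MCAO arrays lay below both sham arrays in 32 genes (40.5%, against 25.4%) and above in 6 (7.59%, against 18.9%). These counts are a description, since the array was set aside after its values were seen.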
